A study of Mus musculus and blank sample with 768 samples.

Results

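The apelin and adrenomedullin genes are the peptide ligands Apln and Adm, the receptors Aplnr and Calcrl, and the receptor partners Ramp2 and Ramp3. They were taken by symbol from both gene read count tables, where 6 of 51734 gene symbols make up the set, and all 6 were found. Single cells had been sorted by FACS from mouse tumours, lymph nodes and blood, and their full-length cDNA was sequenced with a modified SMART-seq2 protocol. Endothelial gates were CD45- CD31+, where CD45 is a leukocyte and CD31 an endothelial surface protein, and were split by GFP. The labels call GFP+ endothelial cells Csf1r-lineage endothelial cells and GFPlow lymph node cells potential ones. Csf1r encodes the receptor of a macrophage growth factor. The kept cells were 84 and 85 GFP+ tumour endothelial cells on plates KM3 and KM4, 84 GFP- tumour endothelial cells on plate KM2, 81 tumour macrophages (CD45+ CD31- GFP-) on plate KM1, and 98 GFP+, 74 GFP- and 79 GFPlow lymph node endothelial cells. A further 7 kept GFP+ cells came from blood. No strain, age, tumour type or reporter allele is named in the sources used here, and no label ties a well to an animal. Each gate of a tissue was therefore treated as 1 sample, and no test between groups was possible.

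Apelin acts on a G protein-coupled receptor encoded by Aplnr, and in growing vessels the ligand is best known from endothelial tip cells while the receptor is typical of veins and sprouting endothelium. Adrenomedullin acts on the calcitonin receptor-like receptor, encoded by Calcrl, which binds it only when paired with a receptor activity-modifying protein. Pairing with RAMP2 or RAMP3 gives adrenomedullin receptors, and pairing with RAMP1 gives the receptor of the neuropeptide CGRP. Adm is a textbook hypoxia-induced gene, and mice without Adm, Calcrl or Ramp2 have defects of blood and lymphatic vessels as embryos.

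The genes lie on 4 chromosomes of the mouse genome (GENCODE vM21 annotation, GRCm38, the assembly also called mm10), and the tables give 1 count per gene and cell. Apln is at chrX:48025146-48034853 on the minus strand, with 3 separate exon blocks. Aplnr (chr2:85136225-85139923, plus strand) is a single-exon gene in that annotation. Adm (chr7:110627661-110629820, plus strand) has 4 exon blocks and overlaps an antisense gene, Gm28863. Calcrl (chr2:84330626-84425411, minus strand) has 16 exon blocks. Ramp2 (chr11:101246028-101259546, plus strand, 8 exon blocks) overlaps the protein-coding gene Vps25 on the same strand. Ramp3 (chr11:6658521-6677475, plus strand, 4 exon blocks) overlaps a pseudogene, Gm11978, on the opposite strand. Whether counting used strand is not given in the sources used here. Reads of Adm and Ramp3 can therefore not be told apart from those of their opposite-strand partners where they overlap. For Ramp2 and Vps25, on the same strand, strand would not separate the reads of the overlap, and how these were counted is not given either.

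The promoters of the 2 ligand genes are shown because Apln and Adm were the pair found together in cells most above the product of their shares, as described further on, and because Adm is known as a target of hypoxia-inducible factors, whose binding sites share the cores ACGTG and GCGTG. Each line gives the 250 bases before the RefSeq start site on GRCm38.p6, 5′ to 3′ on the gene's strand (chrX:48034854-48035103, minus strand, for Apln and chr7:110627407-110627656, plus strand, for Adm). Capitals mark a core, read here on the opposite strand.
Apln: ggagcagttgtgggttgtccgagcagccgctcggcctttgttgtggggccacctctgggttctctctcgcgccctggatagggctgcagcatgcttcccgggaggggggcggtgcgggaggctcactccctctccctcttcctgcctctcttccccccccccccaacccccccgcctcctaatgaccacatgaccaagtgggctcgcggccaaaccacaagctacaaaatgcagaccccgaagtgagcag
Adm: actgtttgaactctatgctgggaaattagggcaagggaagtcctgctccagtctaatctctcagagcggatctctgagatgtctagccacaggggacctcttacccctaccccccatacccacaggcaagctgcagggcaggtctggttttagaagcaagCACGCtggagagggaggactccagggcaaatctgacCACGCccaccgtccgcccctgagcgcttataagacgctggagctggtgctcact
Both strands of windows from 250 bases before to 50 after the start were searched. The Adm window held 2 matches of GCGTG, with first bases 90 and 54 bases before the start, and none of ACGTG. The Apln window held neither core. Among the other members in the RefSeq promoter table, Calcrl had 1 match of GCGTG and Ramp3 had 2. Of all 32851 promoters of 300 bases in that table, 19.6% held ACGTG and 32.4% held GCGTG, so a match is common, and these matches describe letters, not binding.

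Levels are given as CPM, the reads of a gene per 1000000 reads of all genes, over the summed reads of a group. Their 95% Poisson intervals, like the 95% Clopper-Pearson intervals of shares of cells, cover counting error only, because PCR reads without molecular identifiers are not independent molecules. Median reads per kept cell ran from 609244 in lymph node GFP- to 1238819 in lymph node GFPlow cells, and the 2 empty wells held no read of any member. Pecam1, which encodes CD31, had reads in 89.8% to 97.6% of cells of the 5 endothelial gates and in 13.6% of macrophages. Ptprc, which encodes CD45, had reads in 91.4% of macrophages and in no tumour endothelial cell. Macrophages, tumour GFP- cells and tumour GFP+ cells sat on different plates, so plate and gate cannot be told apart in tumours. Tumour and lymph node cells came in separate tables, so tissue and table cannot be told apart either.

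Apln was a tumour endothelial transcript in these wells. Its level was 401 CPM (95% interval 398 to 404) in tumour GFP+ and 403 CPM (398 to 407) in tumour GFP- cells, with reads in 80 GFP+ cells (47.3%, interval 39.6 to 55.2) and 40 of 84 GFP- cells (47.6%, 36.6 to 58.8). The GFP+ plates gave 354.9 CPM (KM3) and 444 CPM (KM4), on either side of the GFP- plate, so the 2 gates did not differ beyond the spread between plates. Expression was uneven between cells: among cells with Apln reads the median was 434 CPM in GFP+ and 375.6 CPM in GFP- cells, while the other cells had none. A single GFP- cell held 32.3% of the Apln reads of its gate, and without it that level was 280.98 CPM. No read of Apln was found in any lymph node endothelial cell, which allows a share of up to 1.20% by a rule of 3 cells of the total, used for every count of 0 here (the Clopper-Pearson limit is 1.46%). Macrophages had 2 Apln reads in all, in 2 of 81 cells.

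Aplnr, the apelin receptor gene, was found in more tumour endothelial cells than its ligand and was also present in 1 lymph node gate. It reached 581 CPM in tumour GFP+ cells (120 cells, 71.01%, interval 63.5 to 77.7) and 647 CPM in tumour GFP- cells (67 of 84, 79.8%, 69.6 to 87.7). The plates KM3 and KM4 gave 586 and 576 CPM, both below KM2. Lymph node GFP- cells followed with 179.1 CPM, and here 17 of 74 cells (22.97%, 13.99 to 34.2) carried all the reads at a median of 783 CPM among those cells. The pools of that gate gave 198.3 CPM in A (11 of 40 cells), 149.1 CPM in B (5 of 26) and 219.1 CPM in C, where 1 of 8 cells held all the reads. Lymph node GFP+ cells had 1 read in 98 cells, and lymph node GFPlow cells had 0 reads in 79 cells, which allows a share of up to 3.797% (Clopper-Pearson limit 4.56%). Aplnr was thus confined to 1 of 3 lymph node gates, apart from that 1 read.

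**Figure D1:**
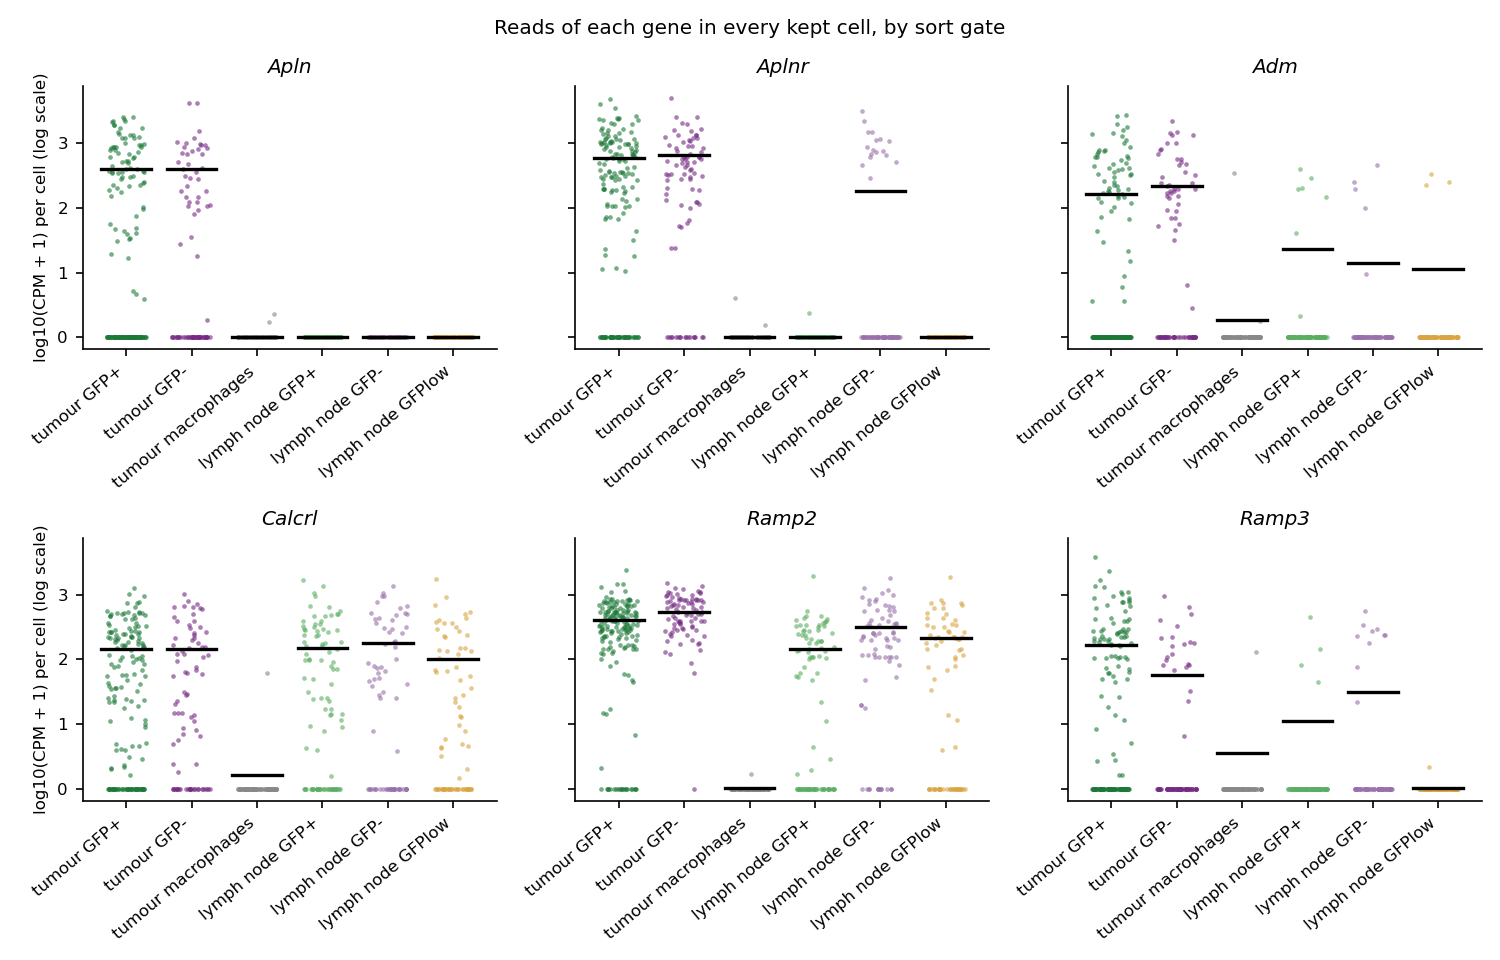
Each point is 1 kept cell, plotted as log10 of CPM plus 1 for 6 genes in 6 sort gates, and the black line is the CPM of the summed reads of the gate on the same scale. Apln points above 0 lie almost wholly in the 2 tumour endothelial gates, at 47.3% and 47.6% of cells, whereas Calcrl and Ramp2 points fill all 5 endothelial gates.

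Adm, the adrenomedullin gene, was highest in tumour endothelium and sparse elsewhere. It gave 163.5 CPM in tumour GFP+ cells (62 cells, 36.7%, interval 29.4 to 44.4) and 215.8 CPM in tumour GFP- cells (43 of 84, 51.2%, 40.03 to 62.3). Plates KM3 and KM4 lay at 180.98 and 147.1 CPM. In lymph nodes the level was 22.6 CPM in GFP+ (7 of 98 cells), 12.9 CPM in GFP- (5 of 74) and 10.3 CPM in GFPlow cells (3 of 79). Between 50.3% and 62.8% of the reads of each lymph node gate came from 1 cell, and pools of a gate ranged from 9.69 to 51.4 CPM in GFP+ and from 1.55 to 26.8 CPM in GFP- cells. The order of the lymph node gates therefore does not stand above the spread of their pools. In macrophages 66 of 67 Adm reads came from 1 cell.

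Calcrl, the shared receptor subunit, was the member with the most even level across endothelial gates. It had reads in 71.01% of tumour GFP+, 69.05% of tumour GFP-, 65.3% of lymph node GFP+, 56.8% of lymph node GFP- and 58.2% of lymph node GFPlow cells. The levels in that order were 146.5, 141.9, 147.02, 179.2 and 99.9 CPM. Pools of lymph node cells ranged from 72.8 to 228.7 CPM in GFP+ and from 21.8 to 118.95 CPM in GFPlow cells, so neighbours in this order overlap in their pools. In the shared pools, GFPlow cells lay below GFP- cells, at 118.95 against 180.7 CPM in B and 21.8 against 100.5 CPM in C. Macrophages had Calcrl reads in 1 of 81 cells.

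Ramp2, the partner that makes the main adrenomedullin receptor of endothelium, was the member found in the largest share of cells in tumour endothelium and in the lymph node GFP- and GFPlow gates. Tumour GFP- cells gave 546 CPM with reads in 83 of 84 cells, and tumour GFP+ cells gave 403 CPM in 88.2% of cells (378.6 CPM on KM3, 425 CPM on KM4). Lymph node levels were 314.5 CPM in GFP- (61 of 74 cells), 210.4 CPM in GFPlow (48 of 79) and 142.1 CPM in GFP+ cells (56 of 98). GFP- pools ran from 183.7 to 438 CPM and GFP+ pools from 71.2 to 171.2 CPM, so these 2 gates did not overlap. GFPlow pools, from 108.6 to 251.1 CPM, overlapped with both.

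Ramp3, the alternative partner, set the 2 tumour endothelial gates apart most. It gave 167.1 CPM in tumour GFP+ cells (82 cells, 48.5%, interval 40.8 to 56.3) and 56.6 CPM in tumour GFP- cells (22 of 84, 26.2%, 17.2 to 36.9). Both GFP+ plates, at 211.6 CPM (KM3) and 125.5 CPM (KM4), lay above the GFP- plate. Lymph node GFP- cells had 30.9 CPM (10 of 74 cells), GFP+ cells 9.98 CPM (4 of 98) and GFPlow cells a single read in 79 cells. Ramp1, the partner for CGRP and no member of the set, showed the opposite distribution in tumours: 0 reads in endothelial cells (a share of up to 1.19%, Clopper-Pearson limit 1.45%) and 27.2 CPM in 17 of 81 macrophages.

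Lengths differ between the genes, so genes were ranked against each other only by CPM per kilobase of exon. On that scale of levels, tumour GFP+ cells had 156.99 for Aplnr, 127.3 for Apln, 121.9 for Ramp2, 121.1 for Ramp3, 100.97 for Adm and 30.01 for Calcrl. Tumour GFP- cells had 174.9 for Aplnr, 165.4 for Ramp2, 133.3 for Adm, 127.8 for Apln, 41.05 for Ramp3 and 29.1 for Calcrl. Per kilobase, Calcrl was thus the lowest of the 6 in tumour endothelium in spite of its presence in most cells.

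The first comparison asked whether Csf1r-lineage (GFP+) tumour endothelial cells differed from GFP- ones. A gene was called measured when 1 group or both had 1 CPM or more with reads in 5% of cells or more, and apart when the log2 ratio of CPM plus 1 reached a 2-fold difference. Of 6 measured members, Ramp3 was apart, higher in GFP+ by 1.54 on the log2 scale (1.88 for KM3 and 1.13 for KM4 against KM2), and no member was lower by that margin. Over 10971 measured genes, 6.95% were at least 2-fold higher and 8.25% at least 2-fold lower, and the median was -0.12. A count of 1 in 6 members is too small to be set apart from these shares. The other members lay closer together. The ratio was -0.01 for Apln (0.40 without the cell with most Apln reads in each gate), -0.16 for Aplnr, 0.05 for Calcrl and -0.44 for Ramp2. When the unnamed cluster 3 described further on was left out, Adm went from -0.40 to 0.42, Aplnr to 0.12 and Calcrl to -0.13, so these directions depend on which cells enter. Ramp3 stayed higher in GFP+ cells in 4 of the 5 clusters with at least 5 cells of each gate, with 207.3 against 85.7 CPM in cluster 2, 125.5 against 35.6 CPM in cluster 3, 75.7 against 29.1 CPM in cluster 5 and 77.2 against 18.3 CPM in cluster 6. In cluster 7 it was lower in GFP+ cells, at 3.81 against 36.4 CPM. Clusters 6 and 7 rest on at most 2 Ramp3-positive cells of each gate.

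Against tumour macrophages, all 6 members were at least 2-fold higher in tumour endothelium, where 25.1% of 11696 measured genes were higher and 18.0% lower by that margin and the median was 0.14. The log2 ratios were 9.20 for Aplnr, 8.80 for Ramp2, 8.62 for Apln, 6.63 for Adm, 6.49 for Calcrl and 5.19 for Ramp3. These values are on the CPM plus 1 scale, which understates the difference of genes with almost no reads in 1 group. Each of the plates KM2, KM3 and KM4 gave at least 4.00 for every member. Endothelial cells were thus the source of nearly all reads of both ligands and both receptors among the sorted tumour cells, and the list of 12 macrophage markers summed to 7.63 CPM in them against 39687 CPM in macrophages.

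In lymph nodes, 3 of 5 measured members were at least 2-fold lower in GFP+ than in GFP- cells and none was higher, beside 19.2% lower and 20.1% higher among 11140 measured genes (median 0.04). Aplnr had a log2 ratio of -7.48, and the pools A, B and C gave -7.60, -7.23 and -7.78; its only GFP+ read was in pool A. Ramp2 had -1.14, lower in every pool. Ramp3 had -1.54, yet the pools gave -1.18, -4.82 and 3.20, so its direction differed between pools. Pool C held 8 GFP- cells, and none of them had a Ramp3 read. Calcrl (-0.28) and Adm (0.76) were within 2-fold, also with pools on both sides of 0, and Adm was -0.28 without pool C. The gates differed in makeup: of GFP- cells, 26 fell in lymphatic-like clusters, 26 in a blood endothelial-like cluster and 17 in a high endothelial venule-like cluster, whereas 83 of 98 GFP+ cells were lymphatic-like and 0 were blood endothelial-like. The list of 12 blood endothelial markers summed to 2412 CPM in GFP+ and 11943 CPM in GFP- cells. Of 12 macrophage markers, Lyz2, Ctss and Csf1r were measured and higher in GFP+ cells, and the list summed to 525 against 61.6 CPM, with Ptprc reads in 1 cell of each gate. The part of these markers in the ratios was not tested. The lymphatic-like class also differed in makeup: 18 of its 26 GFP- cells were in cluster 6, which held no GFP+ cell, while all 83 GFP+ cells were in clusters 1, 2 and 4. Across these different clusters, Ramp2 was 146.6 CPM in lymphatic-like GFP+ and 207.3 CPM in lymphatic-like GFP- cells, Calcrl was 147.5 and 192.6 CPM, and Adm was 24.2 and 26.9 CPM.

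GFPlow cells were compared within pools B and C, which hold all 3 gates. Against GFP- cells, 3 of 5 measured members were at least 2-fold lower and none higher, where 30.5% of 10613 measured genes were lower and 25.3% higher (median -0.05). The log2 ratio was -7.35 for Aplnr, -4.54 for Ramp3 and -1.29 for Calcrl. Aplnr reads were found in 17.6% of the GFP- cells and in no GFPlow cell. PCR reads are not independent molecules, so these ratios set no lower bound on a fold difference. Against GFP+ cells, 1 of 3 measured members was at least 2-fold lower and none higher, where 25.4% of 10470 measured genes were lower and 20.5% higher (median 0.00). That member was Adm with -1.34, and its pools disagreed in sign, with 1.28 in pool B and -5.71 in pool C. Ramp2 (-0.04) and Calcrl (-0.30) were within 2-fold. With 3 and 5 measured members, these counts are too small to be set apart from the shares for all genes. Ramp3 had no read in the GFPlow cells of these pools, nor in the 8 GFP- cells of pool C. Its ratio thus rests on 2 GFP- cells of pool B, 1 of which held 50.1% of their reads. Those 2 cells were 7.69% of the GFP- cells of that pool. With 0 positive among 15 GFPlow cells there, a share of up to 20.0% is allowed by the rule of 3 cells. By share of cells, no Ramp3 difference is therefore established.

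**Figure D2:**
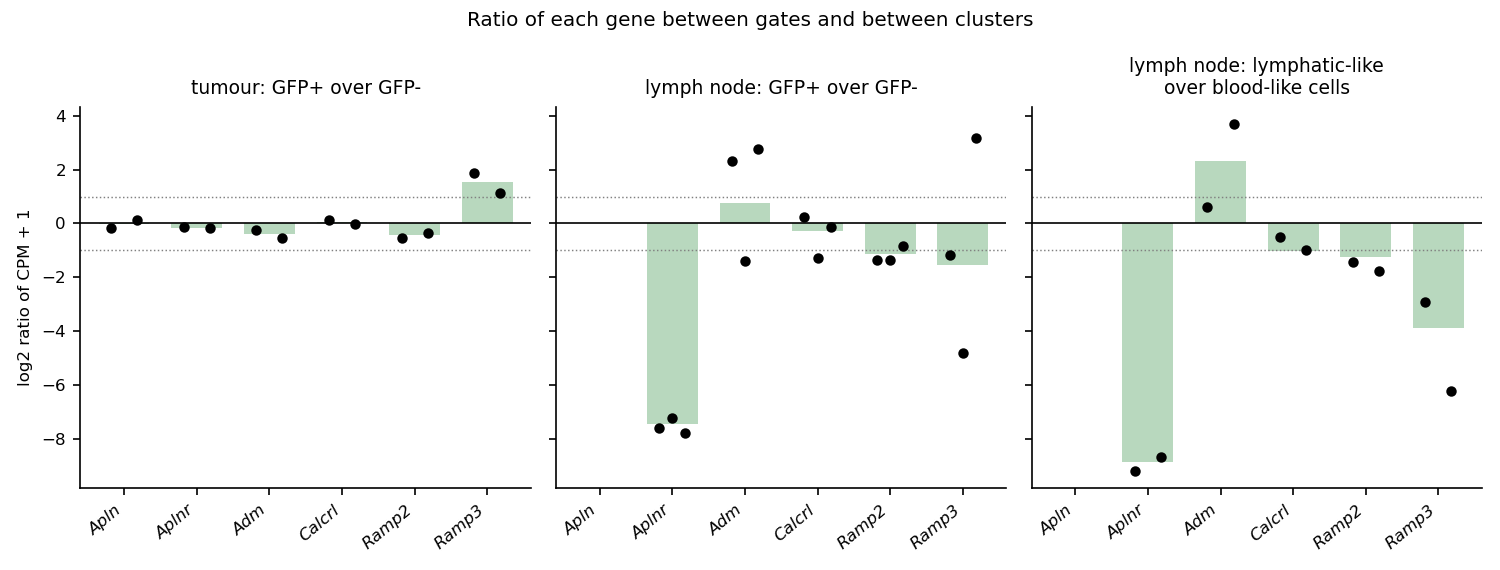
Bars show the log2 ratio of CPM plus 1 for each gene in 3 comparisons, points show single plates or pools with at least 5 cells of each group, and dotted lines mark a 2-fold difference. Ramp3 is the only bar past the line in tumours (1.54), and Aplnr is the longest bar in both lymph node panels (-7.48 and -8.86). Apln has no bar in the lymph node panels because it had no reads there.

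Clusters gave a view by endothelial type, built without the gate labels but not independent of the gate. In lymph nodes, all 26 blood endothelial-like cells and 17 of 19 high endothelial venule-like cells were GFP-. Most lymphatic-like cells were GFP+ or GFPlow. Type and gate therefore largely coincided in the comparison of lymphatic-like with blood endothelial-like cells. Cells of each table had been clustered without the members and without the list genes, and clusters were named from markers by a rule set after the data had been seen. In lymph nodes, Aplnr was 465 CPM in the blood endothelial-like cluster (14 of 26 cells) and 137.4 CPM in the high endothelial venule-like cluster (3 of 19 cells), and 1 read was found in all lymphatic-like cells. Of 5 measured members, 4 were at least 2-fold lower and 1 higher in lymphatic-like than in blood endothelial-like cells, where 20.0% of 10778 measured genes were lower and 40.1% higher and the median was 0.47. The log2 ratios were -8.86 for Aplnr, -3.90 for Ramp3, -1.23 for Ramp2 and -1.02 for Calcrl. Adm was the higher member, with 2.32 (17.5 against 2.72 CPM), from 12 lymphatic-like cells (7.14%) and 2 of 26 blood endothelial-like cells. Its ratio was 0.61 in pool A, within 2-fold, and 3.69 in pool B. Without the cell with most reads, Calcrl moved to -0.68, and in each of pools A and B it was within 2-fold. Ramp2 had reads in 19 of 19 high endothelial venule-like cells at 489 CPM. Ramp3 was 16.8 CPM in that cluster, between 4.94 CPM in lymphatic-like and 87.6 CPM in blood endothelial-like cells. Calcrl was 36.7 CPM there (10 of 19 cells), below the 135.6 CPM of lymphatic-like cells. Its direction between lymphatic-like and blood vessel cells thus depended on which blood vessel cluster was used.

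Within the tumour, the 2 ligands varied far more between endothelial clusters than the receptor Calcrl or Ramp2. Apln was 1154 CPM in cluster 4 (29 of 38 cells), whose leading genes include Pgf, Esm1 and Angpt2, known from growing vessels, and 484 CPM in cluster 3 (39 of 66 cells). Adm followed the same order at the top, with 398 CPM in cluster 4 (30 of 38 cells) and 336.7 CPM in cluster 3 (40 of 66). Cluster 3 stays unnamed because 3 of its 10 leading genes are predicted genes. In cluster 6, led by Gja4, a connexin gene of arteries, neither ligand had a read in 23 cells, which allows a share of up to 13.04% (Clopper-Pearson limit 14.8%). Aplnr ran the other way at the top, with 859 CPM in cluster 2 (60 of 71 cells) against 406 CPM in cluster 4 (20 of 38). The cycling cluster 5, led by Cenpf and Bub1, had 283.8 CPM of Apln and 577.5 CPM of Aplnr. Ramp2 kept within 308.5 to 634 CPM over the 6 endothelial clusters. Cluster 4 held 36 GFP+ and 2 GFP- cells, and within its GFP+ cells Apln was 973 CPM.

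**Figure D3:**
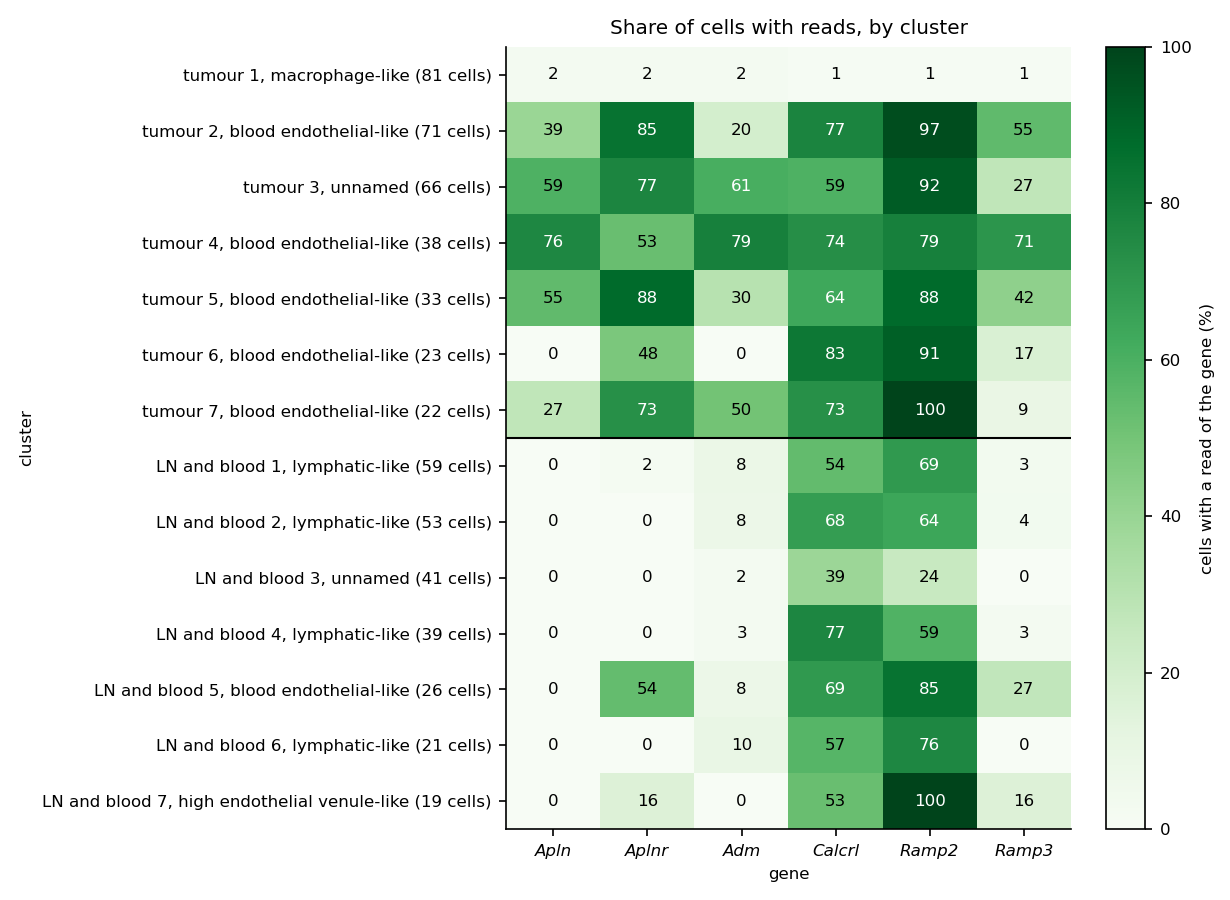
The heat map gives the percentage of cells with at least 1 read of each gene in 7 tumour clusters and in 7 clusters of the lymph node and blood table, with names and cell numbers on the left. Apln and Adm reads are in 76.3% and 78.9% of tumour cluster 4 and in 0 cells of cluster 6, while Aplnr in lymph nodes stands out in cluster 5 at 53.8%.

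Ligand and receptor were then counted in the same cells. In tumour GFP+ endothelium, 59 cells (34.9%) had reads of both Apln and Aplnr, against 56.8 cells from the product of the 2 shares. In tumour GFP- endothelium it was 36 of 84 cells (42.9%), against 31.9. Aplnr reads were in 79.2% of Apln-positive and 69.2% of Apln-negative tumour endothelial cells, and the Aplnr level was 612 and 592 CPM. The median over cells ran the other way, at 286.4 CPM in Apln-positive and 331.99 CPM in Apln-negative cells. Apln-positive cells were also deeper, with a median of 988490 reads against 709144. After each cell was thinned to 100000 reads, 90 tumour endothelial cells had both, against 83.96 from the product. Plates KM2 and KM4 each kept the order of all cells, and on KM2 36 of 40 Apln-positive cells had Aplnr reads. On plate KM3 the order was the other way, with Aplnr reads in 63.2% of Apln-positive and 67.4% of Apln-negative cells. Over all tumour endothelial cells, apelin and its receptor thus occurred together about as often as their separate shares give, and the direction differed between plates.

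Adm and Calcrl met in 42 tumour GFP+ cells (44.02 from the product) and in 30 of 84 tumour GFP- cells (29.7 from the product). Levels lay further apart than shares: the Calcrl level was 83.7 CPM in Adm-positive and 190.6 CPM in Adm-negative tumour endothelial cells. The 3 plates gave 94.2 against 192.8 CPM (KM2), 64.5 against 209.4 CPM (KM3) and 87.7 against 171.6 CPM (KM4), at a similar median depth of 835658 and 807244 reads over all. Ramp2 was also lower in Adm-positive cells, at 394 against 493.5 CPM. The plates gave 461.6 against 636.3 CPM (KM2), 275.3 against 442.9 CPM (KM3) and a near-equal 414.5 against 431.2 CPM (KM4). Ramp3 was higher in Adm-positive cells, at 157.4 against 109.4 CPM, with a median over cells of 0 in both groups. In lymph nodes 7 endothelial cells had both Adm and Calcrl, against 9.08 from the product.

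Apln and Adm, the 2 ligands, were the pair that departed most from the product. Both were read in 47 tumour GFP+ cells (27.8%, interval 21.2 to 35.2; product 17.4%) and in 31 of 84 tumour GFP- cells (36.9%, 26.6 to 48.1; product 24.4%). Adm reads were in 65% of Apln-positive and 20.3% of Apln-negative tumour endothelial cells, and its level was 263.2 and 76.1 CPM. Thinning left 71 cells with both, against 45.4 from the product. Across cells of a plate, Spearman's rho between the 2 genes was 0.47 (KM2, 84 cells), 0.51 (KM3, 84 cells) and 0.44 (KM4, 85 cells), a description over cells that share a plate and its sequencing. The rho of Apln with Aplnr was 0.04, -0.11 and 0.04 on the same plates.

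**Figure D4:**
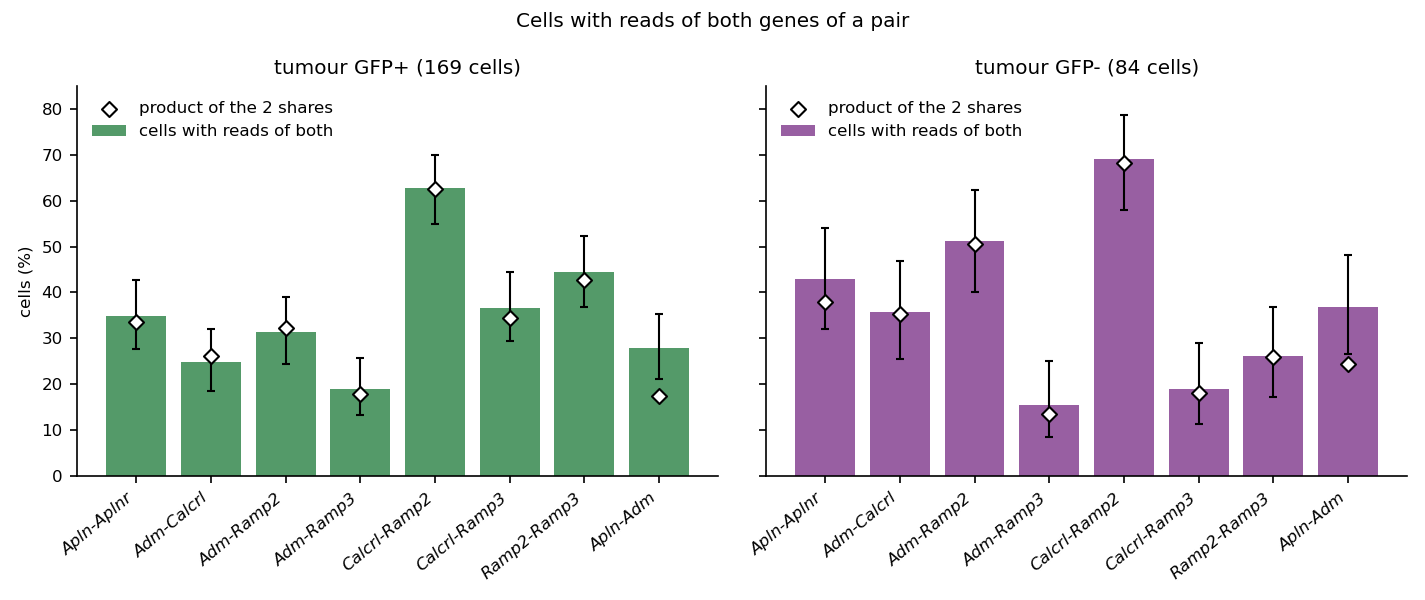
Bars give the percentage of tumour endothelial cells with reads of both genes of 8 pairs, with exact 95% binomial intervals, and diamonds give the product of the 2 shares. The diamond lies inside the interval for 7 pairs in both panels and below it for Apln with Adm, at 17.4% and 24.4%.

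The RAMP reads found beside Calcrl describe which adrenomedullin receptor a cell could form. Of 120 tumour GFP+ cells with Calcrl reads, 49 had Ramp2 alone, 57 had Ramp2 and Ramp3, 5 had Ramp3 alone and 9 had neither. Among 58 tumour GFP- cells with Calcrl, 42 had Ramp2 alone and 16 had both partners. Ramp2 and Ramp3 together thus made up 47.5% and 27.6% of Calcrl-positive cells in the 2 gates, with 48.2% and 46.9% on the single GFP+ plates. In lymph node GFP+ and GFPlow cells, of 64 and 46 Calcrl-positive cells, 38 and 30 had Ramp2 alone, and 23 and 15 had neither. None had both partners, but Ramp3 was read in only 4 of 98 and 1 of 79 cells of these gates. With so few Ramp3-positive cells, the lack of cells with both partners says little. Ramp1 was read in 6 and 3 of the Calcrl-positive cells. Lymph node GFP- cells had both in 7 of 42. Adm together with Calcrl and a RAMP was read in 37 (21.9%) of tumour GFP+, 30 of 84 tumour GFP-, 2 of 98 lymph node GFP+, 2 of 74 lymph node GFP- and 1 of 79 lymph node GFPlow cells. All 6 members were read in 11 GFP+ and 6 of 84 GFP- tumour cells, and none of the 6 in 1 cell of each.

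**Figure D5:**
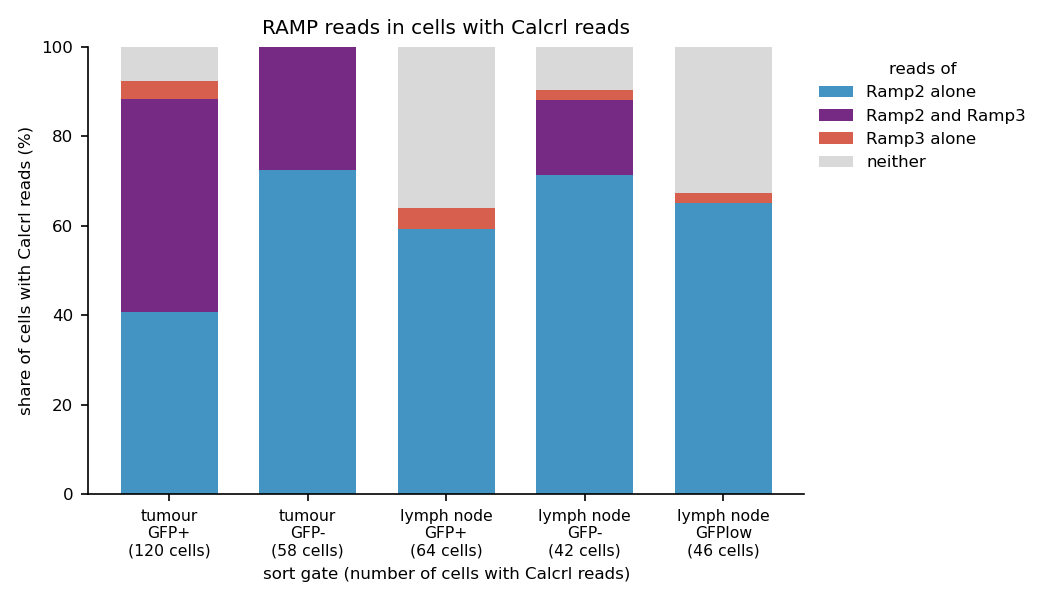
Stacked bars split the cells with Calcrl reads of 5 endothelial gates by their Ramp2 and Ramp3 reads, in percent of those cells, with cell numbers on the axis. The segment with both partners is 47.5% in tumour GFP+ cells. It is missing in lymph node GFP+ and GFPlow cells, where Ramp3 was read in only 4 of 98 and 1 of 79 cells.

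Genes most like each member in kept tumour endothelial cells were named by Spearman's rho within a plate, averaged over KM2, KM3 and KM4. They came from 4151 genes with reads in at least 25% of cells. For Apln these were Trp53i11 (0.48), Adm (0.48) and Pgk1 (0.45), a glycolysis gene. For Adm they were Trp53i11 (0.57), Pkm (0.51), another glycolysis gene, and Kit (0.50), a growth factor receptor gene, and all 3 lay at 0.44 or above on each plate. Ramp3 was most like Ednrb (0.44), which encodes an endothelin receptor. Aplnr (at most 0.36), Calcrl (0.36) and Ramp2 (0.33) had no gene as close. Across the 14 plates or pools by gate with at least 5 cells, Pearson's r was highest for Apln with Akr1b8 (1.00), Aplnr with Selp (0.995), a gene of veins, Adm with Fam102a (0.88), Calcrl with Pecam1 (0.90), Ramp2 with Egfl7 (0.98), an endothelial gene, and Ramp3 with Mn1 (0.95). These points share tissue, plate and table. Apln had almost no reads outside KM2, KM3 and KM4, so its r says little beyond a contrast of tumour endothelium with the rest.

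Other genes of the 2 pathways were counted list by list. Of 8 related peptides and receptors, Crcp, whose product helps the CGRP receptor signal, was the 1 measured in tumour endothelium, at 53.6 CPM in GFP+ and 54.1 CPM in GFP- cells. Adm2, a further ligand of Calcrl receptors, was 27.3 CPM in lymph node GFP+ and 0.65 CPM in GFP- cells. Ramp1 had 16.1 CPM in lymph node GFP+ cells and 0 reads in GFP- cells. Of 7 peptide processing and clearance genes, 5 were measured in the tumour comparison and none was 2-fold apart (median 0.39). In lymph node GFP+ against GFP- cells, 2 of 6 were higher and 2 lower. Gpr182, a scavenging receptor, had 609 against 193.2 CPM and Mme, a peptidase gene, 111.2 CPM against 0 reads. Ackr3, which encodes a decoy receptor of adrenomedullin, had 1.66 against 276.7 CPM. GFPlow cells of pools B and C had 23.5 CPM of Adm2, 647 of Gpr182, 107.2 of Mme and 3.56 of Ackr3. In lymphatic-like against blood endothelial-like cells, Adm2 was 28.3 against 0 CPM, Ramp1 11.9 against 0 and Gpr182 671.6 against 19.3. Mme was 73.3 against 0 CPM and Ackr3 73.4 against 182.2 there. The part of cell type makeup in the differences between gates was not tested. Of 16 signalling genes, 15 were measured in the tumour comparison, with 1 lower (median 0.20).

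Of 12 hypoxia genes, 10 were measured in the tumour comparison and 2 were lower in GFP+ cells, Ankrd37 (-1.18) and the glucose transporter gene Slc2a1 (-1.03), with a median of -0.09. The summed level of that list was highest in tumour cluster 4, where both ligands were highest, at 4525 CPM, and ran from 2501 to 3485 CPM in the other endothelial clusters. Of 12 angiogenic tip genes, Esm1 was higher in GFP+ cells (1.33), none was lower, and the median was 0.27. That list also summed to its highest value in cluster 4, at 8544 CPM, followed by cluster 3 at 6633 CPM, the same order as for both ligands. Cluster 6, with no ligand reads, was close behind at 6532 CPM. Clusters 2, 5 and 7 had 3990.4, 4079 and 4533 CPM. Col4a1 alone gave 2385 of the 5663 CPM of this list over all tumour endothelial cells. Of 8 venous genes none was 2-fold apart between the tumour gates.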

How the data were processed

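Per the labels' protocols, cDNA was amplified for 20 cycles. Both gene tables contain whole-number read counts as deposited by the authors, with no normalization. Per the submitters' processing notes, the build was mm10 and the tools were Subread 1.4.6-p2, STAR 2.4.1b and FastQC 0.11.4. Counting settings are not given in the sources used here. All 768 well columns matched a label and 0 were left over. Both tables list 51826 rows, and 92 rows that shared a symbol were summed into it. Wells below 50000 reads or 1000 genes, or above 25% mitochondrial reads, were left out, and 592 of 766 cells stayed. No doublet caller was run on singly sorted wells. The most alike 2 cells had a Pearson correlation of 0.95, so no pair looked like 1 library in duplicate.

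The 6 members, the gene lists, the naming of up to 4 list genes by size of ratio and the comparisons were chosen with earlier results of these data known. The genes most like a member were the 3 with the highest correlation. No test was run, because each group is 1 sample. Ratios are log2 of CPM plus 1. Clustering (leidenalg 0.10.2 at a resolution of 1, scikit-learn 1.9.0, Python 3.11.15) ran on a graph of 15 neighbours in 20 components of 2000 variable genes. A cluster was named with at least 3 markers of a class in 30% of its cells, and left unnamed when at least 3 leading genes were predicted, ribosomal or mitochondrial. The code for ratio calls was tested on simulated counts with Poisson noise alone. Real cells and plates vary more, so that test does not bear on the calls reported here. Alternatives were another scaling, pseudocount, cell filter and level, single plates or pools left out, thinned cells, and, chosen after seeing the data, named clusters alone and the cell with most reads left out.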

Additional observations from a re-analysis of the deposited data

Results flagged for a closer look

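Calcrl had 64.1 CPM in the GFP+ cells from blood, which entered no comparison. These were 7 kept cells, 2 of them had Calcrl reads, and 99.7% of those reads came from 1 cell. The other 5 members had no reads in these cells. The value drew attention because blood wells have no group to be set against, while the 2 empty wells had 0 reads of Calcrl.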

How the results depend on the processing

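The count of members at least 2-fold apart stayed at 1 in tumour GFP+ against GFP- cells and at 6 in tumour endothelium against macrophages under every alternative run. It ranged from 2 to 4 (3 as reported) in lymph node GFP+ and in GFPlow against GFP- cells. In GFPlow against GFP+ cells it was 1 as reported, 0 with the mean of per-cell CPM, 2 without the cell with most reads of the gene, and 1 to 2 when a pool was left out. In lymphatic-like against blood endothelial-like cells it was 5 as reported and 3 with the mean of per-cell CPM. Adm in GFPlow against GFP+ cells reversed, with 1.28 without pool C and -5.71 without pool B, and the cause was not tested. With no filter on low genes, the share of all genes 2-fold apart was 14.5% in tumour GFP+ against GFP- cells and 44.8% in lymphatic-like against blood endothelial-like cells. Median-of-ratios scaling moved Ramp2 in tumour GFP+ against GFP- cells from -0.44 to -0.31 and turned Apln from -0.01 to 0.12; with total reads the median of all genes there was -0.12. Thinning to 100000 reads kept 32 of 36 shares of cells within their intervals, and the other 4, resting on 1 or 2 reads, went to 0. Rare transcripts in a well are limited by depth, so a missing read does not show that a cell lacks the transcript. The comparison of clusters has no value without the cell filter, since clusters hold kept cells alone. No paired analysis was possible because replicate numbers name wells, not animals; ratios within shared lymph node pools are given beside the pooled ones.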
